A study of Gallus gallus with 12 samples.

Results

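The 124 genes described here are present in embryonic red blood cells at a level of at least 1, still listed but below 1 in adult red blood cells, and at least as high in fibroblasts. They were taken from 13889 chicken genes with a value in any of 4 cell types, and from the 371 whose mean in embryonic red blood cells was at least 1. The rule asked for a mean of at least 0.3 and under 1 in adult red blood cells and a fibroblast mean at or above the embryonic one. Levels are FPKM (fragments counted on a gene, relative to its length and to the library size) that the authors further scaled to cell number, called scaled FPKM below. Of the other genes of the 371, 92 stayed at 1 or more in adult cells, 145 were not listed there, and 10 met the adult limits but were lower or not listed in fibroblasts. The members were therefore chosen by their measured levels in 3 of the 4 cell types. Their levels in fibroblasts and in both kinds of red blood cells are given as a description, and only their level in erythroblasts was left free by the rule.

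Stranded RNA-seq of total RNA depleted of ribosomal RNA was made for 12 samples, all labelled wild type, with 3 replicates for each of 4 cell types. Primary fibroblasts and the HD3 line were cultured in the same serum-containing medium, and HD3 is a single line of chicken erythroblasts transformed by avian erythroblastosis virus. Primary red blood cells came from embryos at embryonic day 10 and from adult hens 28 to 38 weeks old. The labels do not say whether replicates were separate cultures, embryos or hens, so p-values measure only the spread between these samples, which may be technical.

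Birds keep the nucleus in their circulating red blood cells. As an erythroblast matures, its chromatin condenses, transcription declines and the RNA pool comes to be dominated by products of the erythroid programme such as globin messages. Transcripts that most cells use are therefore seen in red blood cells against a shrinking total, and how long they last differs from gene to gene. The title of the series concerns paused RNA polymerase II and chromatin organization in erythrocytes. The tables identify genes by Ensembl ID alone, and the RefSeq table used here carries an Ensembl ID for 0 of its 25635 genes. The members are thus described by level, length and behaviour, and no function is given to any of them. Markers of the 4 cell types could not be looked up for the same reason.

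In scaled FPKM, the median level of the members was highest in fibroblasts, then HD3 cells, then embryonic and last adult red blood cells. Some of these directions turned under other scalings and some did not, as given below. Over the 124 genes the fibroblast mean ran from 4.63 to 3162 scaled FPKM with a median of 97.8. In HD3 erythroblasts it ran from 0.688 to 714, with a median of 32.0. In embryonic red blood cells it ran from 1.00 to 14.2, with a median of 1.92, and in adult red blood cells from 0.304 to 0.998, with a median of 0.545. In absolute scaled FPKM, though not as a fold between fibroblasts and HD3 cells, the span of levels thus narrowed along with the level itself. The rule sets the width of the adult span and the lower end of the embryonic one. A bulk sample does not tell fewer cells of a type from less RNA per cell.

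**Figure D1:**
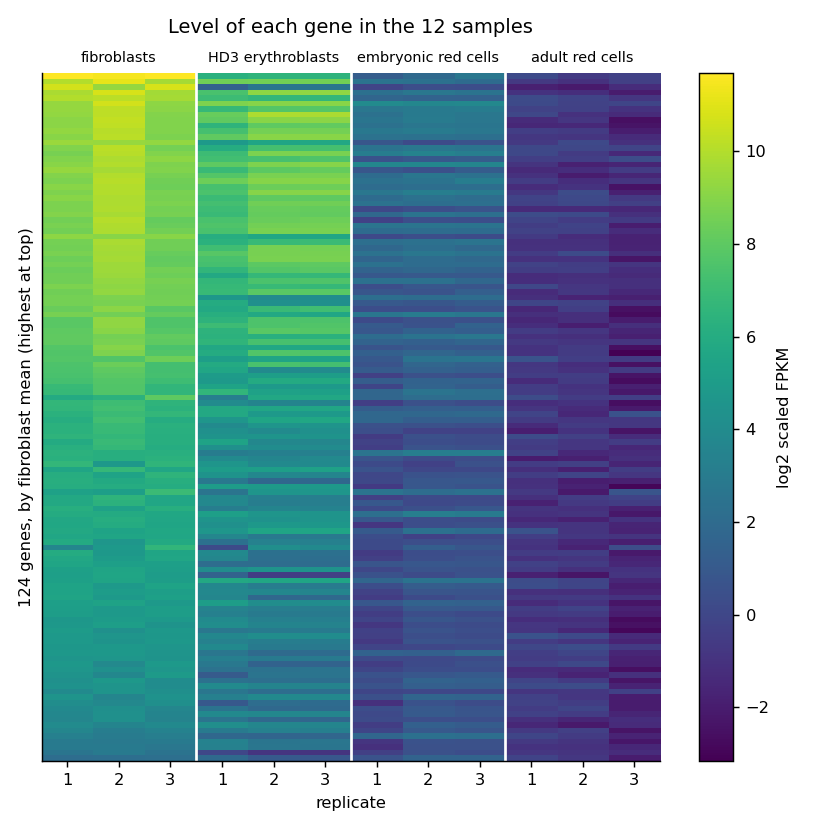
Heat map of log2 scaled FPKM of the 124 genes (rows, ordered by fibroblast mean) in the 12 samples (columns, grouped by cell type and numbered by replicate). Fibroblast replicate 2 is brighter and erythroblast replicate 1 darker than the other replicates over most of the upper rows, and adult replicate 3 is darkest over most rows.

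Summed over the members, scaled FPKM was 31818, 51880 and 29162 in fibroblast replicates 1 to 3 and 8651, 15301 and 15477 in erythroblast replicates 1 to 3. It was 325, 408 and 393 in embryonic and 83.4, 75.4 and 52.3 in adult red blood cells. The 4 cell types did not overlap in this sum, a separation that the rule largely fixes for 3 of them. The means were 37620 ± 12421, 13143 ± 3891, 375 ± 43.9 and 70.4 ± 16.1 (SD, n = 3) in the same order of cell types. The median number of reads on a member, recovered from the values, ranged over libraries from 2060 to 7142 in fibroblasts and from 3468 to 7812 in HD3 cells. It ranged from 1788 to 7224 in the embryo and from 652.0 to 3742 in the adult. The lowest read number of any member in any library was 9, in erythroblast replicate 1.

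The erythroblast table was not used to choose the genes, and it listed 124 of the 124. In 119 of them the means were ordered fibroblast, erythroblast, embryonic and adult red blood cell from high to low. The exceptions were 3 genes with an erythroblast mean above that of fibroblasts and 2 with an erythroblast mean below that of embryonic red blood cells. Among the 82 genes that stayed at 1 or more in adult cells and were at least as high in fibroblasts as in the embryo, 82 were listed in erythroblasts and 77 lay between fibroblasts and embryonic cells. Among the 128 such genes not listed in adult cells, 125 were listed in erythroblasts and 106 lay between. An intermediate erythroblast level was thus common to most genes of the embryonic list.

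Erythroblasts were compared with fibroblasts to place the members in HD3 cells, a transformed line of erythroblasts. The level in erythroblasts was lower by a median of 3.16-fold, with a range from 0.764 to 270 for the ratio of fibroblast to erythroblast mean. By limma on log2(FPKM + 1), fitted over 9442 genes, 84 of the 124 members were lower in erythroblasts and 0 were higher at an adjusted p under 0.05 and a log2 fold change of 1 or more in size. The members' share of 67.7% lower compares with 78.5% of all genes tested, and 1.55% of all genes were higher. The median log2 fold change was -1.59 over the members and -1.73 over all genes tested. The members thus lay near the general difference between the cell types. The fibroblast side of this comparison was chosen by level, since a member needs a fibroblast mean at or above the embryonic one. The nearness is therefore a description only. Replicates did not overlap in 95 members that were lower and in 1 that was higher, against 87.3% lower and 2.57% higher over all genes.

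The general difference depends on the scaling to cell number. After median centring, which sets the samples to the same median gene, 15 members were higher and 12 lower in erythroblasts, against 16.3% and 12.9% of all genes. Equal sums gave 24 members higher and 11 lower, against 11.2% and 16.2% of all genes. With limma voom on the recovered reads 48 were higher and 6 lower, against 24.4% and 12.4% of all genes. The median log2 fold change of the members was then 0.28, 0.30 and 0.80, and that of all genes 0.14, -0.12 and 0.34. The members' median lay below 0 on the per-cell scale and above 0 under the 3 others. Median centring balances the genes by construction and equal sums balance the totals, so no direction for the members as a group is read from these counts.

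**Figure D2:**
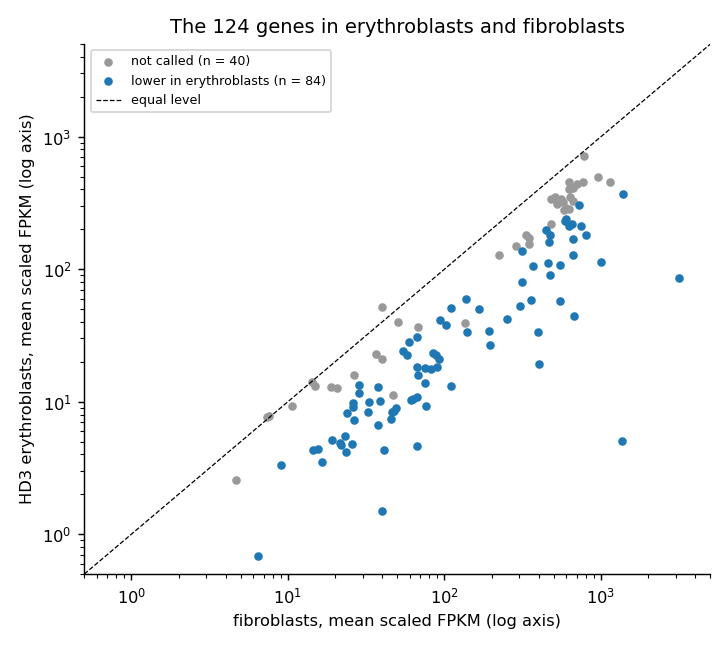
Mean scaled FPKM of each of the 124 genes in fibroblasts (horizontal, log axis) and HD3 erythroblasts (vertical, log axis), coloured by the limma call. The 84 genes lower in erythroblasts and the 40 not called lie mostly below the line of equal level, with 3 genes above it.

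The strongest falls from fibroblasts to erythroblasts were those of ENSGALG00000028627 and ENSGALG00000008677. ENSGALG00000028627, with a recovered length of 1051 bp, was at 1660, 640 and 1774 scaled FPKM in fibroblast replicates 1 to 3 and at 2.77, 6.12 and 6.20 in erythroblast replicates 1 to 3. In embryonic red blood cells it was at 0.923, 1.35 and 1.27 and in adult red blood cells at 0.280, 0.234 and 0.409. Its fibroblast replicates were all far above those of the other cell types, although replicate 2 was the lowest of them. The log2 fold change in erythroblasts was -7.74 ± 0.462 (SE) at a limma adjusted p of 7.37e-06, a 270-fold difference of means. Against embryonic red blood cells ENSGALG00000028627 was higher in erythroblasts by a log2 fold change of 1.41 (standard error 0.261, limma adjusted p 9.79e-04). Of the reads counted on listed genes it took 0.146% ± 0.0669 in fibroblasts against 0.00309% ± 0.00120 in erythroblasts (SD, n = 3). It was 0.0118% ± 0.00271 in the embryo and 0.0137% ± 0.00318 in the adult (SD, n = 3). Under median centring, equal sums and voom the log2 fold change against embryonic cells was -1.31, -0.31 and -1.91, so its direction turned with the scaling (limma adjusted p 0.00932, 0.516 and 0.00145). By the share of reads, which leaves out the cell-number factor but is taken over lists of unequal length, both kinds of red blood cells lay above erythroblasts.

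ENSGALG00000008677, with a recovered length of 2065 bp, had the highest fibroblast mean of the members. It was at 3320, 2900 and 3265 scaled FPKM in fibroblasts and at 78.4, 90.8 and 87.9 in erythroblasts, with close replicates in both. Embryonic replicates were at 2.37, 3.82 and 6.60 and adult replicates at 1.15, 0.646 and 0.809, so that embryonic replicate 3 stood highest among red blood cells. The log2 fold change in erythroblasts against fibroblasts was -5.19 ± 0.321 (SE) at a limma adjusted p of 8.06e-06. The erythroblast mean was 20.1-fold the embryonic one (log2 fold change 4.12, limma adjusted p 6.09e-06). With voom on the recovered reads this last difference did not pass, at a log2 fold change of 0.44 and a limma adjusted p of 0.422.

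The comparison of erythroblasts with embryonic red blood cells sets a transformed, cultured line against primary cells. A difference of stage cannot be told apart from culture, transformation and source here. The level of the members was a median of 14.9-fold higher in erythroblasts, with ratios from 0.588 to 242. Of 123 members tested by limma among 1268 genes, 114 were higher in erythroblasts and 0 lower, and 9 did not pass. This is 92.7% of the members tested, where 93.4% of all genes were higher and 0.946% lower. The median log2 fold change was 3.26 over the members and 2.66 over all genes. The embryonic side of this comparison was chosen by level, since a member needs a mean of at least 1 there. Median centring left 51 members higher and 17 lower, against 19.3% of all genes in each direction. Equal sums gave 67 higher and 5 lower, against 55.7% and 3.71% of all genes. Voom on the recovered reads gave 38 higher and 33 lower, against 23.6% and 21.8%. The members' median log2 fold change was 0.54 under median centring, 1.34 under equal sums and -0.11 with voom. That of all genes was -0.06, 1.17 and 0.02.

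The members with the strongest rise in erythroblasts over embryonic red blood cells were ENSGALG00000012172 and ENSGALG00000008806. ENSGALG00000012172, with a recovered length of 1493 bp, was at 175, 318 and 340 scaled FPKM in erythroblasts and at 0.819, 1.35 and 1.28 in embryonic red blood cells. Adult replicates were at 0.936, 0.689 and 0.652, overlapping with the embryonic ones. Fibroblast replicates were at 371, 1067 and 296, with replicate 2 far above the others. The log2 fold change of erythroblasts against embryonic cells was 6.97 ± 0.322 (SE) at a limma adjusted p of 5.40e-07. The untransformed erythroblast mean was 242-fold the embryonic one. Against fibroblasts the gene did not pass, with a log2 fold change of -0.88 and a limma adjusted p of 0.167. Under median centring, equal sums and voom that value was 0.99, 1.12 and 1.64, above 0 in each, and it passed with voom alone (limma adjusted p 0.0404).

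ENSGALG00000008806, with a recovered length of 760 bp, was at 129, 303 and 289 scaled FPKM in erythroblasts, at 437, 972 and 384 in fibroblasts, at 1.03, 1.33 and 1.54 in embryonic and at 0.378, 0.379 and 0.352 in adult red blood cells. Embryonic and adult replicates did not overlap, and the adult ones lay close together. The untransformed erythroblast mean was 185-fold the embryonic one. The log2 fold change by limma was 6.62 ± 0.367 (SE) at an adjusted p of 9.73e-07. Against fibroblasts their log2 fold change was -1.28 (limma adjusted p 0.0441), a call that rests on the scaling and on single libraries. It was 0.59, 0.72 and 1.21 under median centring, equal sums and voom, with limma adjusted p of 0.390, 0.207 and 0.0693. It did not pass without erythroblast replicate 1 or 3 or fibroblast replicate 1 or 2, with values from -1.46 to -0.86. Of the reads counted on listed genes ENSGALG00000008806 took 0.107% ± 0.0429 in erythroblasts and 0.0466% ± 0.0255 in fibroblasts (SD, n = 3), the higher share being that of erythroblasts. In both of these members fibroblast replicate 2 was the highest and erythroblast replicate 1 the lowest of its cell type.

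Against adult red blood cells, 122 members could be tested among 673 genes, and 122 were higher in erythroblasts and 0 lower. Over all genes 87.7% were higher and 0.297% lower. The rule caps the adult mean at 1, so a high count here follows in part from the choice of members, and nothing is read from the distance to the background. The 2 members not tested had a mean under 1 over the 6 samples. The comparisons of erythroblasts with the 3 other cell types share the erythroblast samples. In 76 members erythroblasts were lower than fibroblasts and higher than both kinds of red blood cells by limma, and in 38 they were higher than both kinds of red blood cells without passing against fibroblasts. Of the 444 genes tested in all 3 comparisons, 65.1% showed the former combination and 20.9% the latter. Median centring gave 72 members higher and 4 lower in erythroblasts than in adult cells, against 26.3% and 26.0% of all genes. Equal sums gave 53 and 4, against 13.5% and 27.2%, and voom on the recovered reads gave 43 and 44, against 8.32% and 70.0%. Voom was scaled to the reads on 10303 listed genes in erythroblasts and on 804 in adult cells.

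The decline from embryonic to adult red blood cells is what the rule selected, and it is given without a test. The adult mean was a median of 0.245 of the embryonic mean, with quartiles of 0.152 and 0.397 and a range from 0.0296 to 0.954. With equal sums over the genes in both tables the median was 1.41, so the direction turned under that scaling. Equal sums are weighted by the most abundant genes, and median centring was not applied to this ratio. On the per-cell scale the adult mean stayed above 0.5 of the embryonic mean in 15 members and was below 0.1 of it in 19. Over the 481 genes in both red cell tables the median was 0.673. Every embryonic replicate lay above every adult replicate in 111 of the 124 members. The same held for 205 of the 481 genes, or 42.6%, and these include the 111 members. Across the members the embryonic and adult means had a Spearman's rho of only 0.13, within the narrow adult range that the rule allows.

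**Figure D3:**
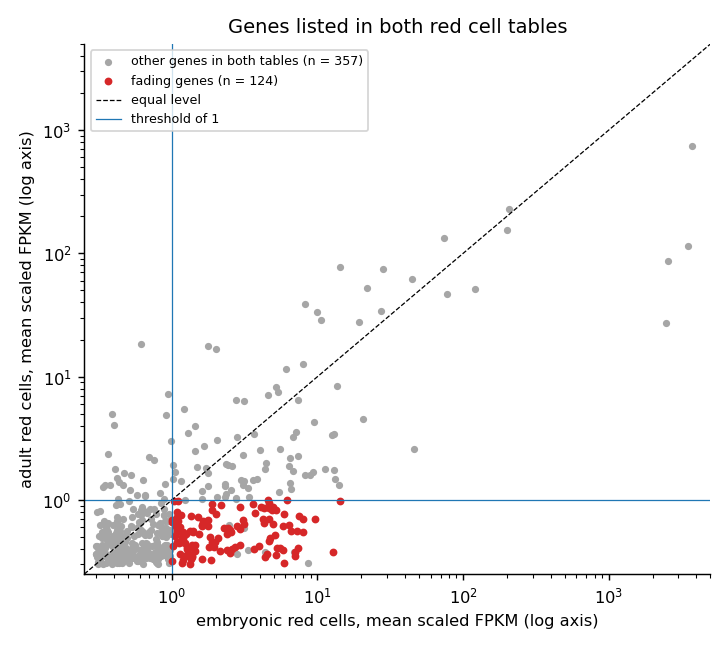
Mean scaled FPKM in embryonic (horizontal, log axis) and adult (vertical, log axis) red blood cells of the 481 genes listed in both tables, with the 124 members in red. The members fill the band between 0.3 and 1 in adult cells and reach 14.2 in embryonic cells, and they lie below the line of equal level.

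Near the limits of the rule the choice of genes turned on small differences. The 3 members nearest the adult limit had adult means of 0.989, 0.995 and 0.998 and embryonic means of 1.04, 4.56 and 6.14. The 3 nearest genes beyond it had adult means of 1.00, 1.01 and 1.02 and embryonic means of 1.24, 1.60 and 2.75. At the lower adult limit, the lowest members stood at 0.304, 0.305 and 0.307. That limit of 0.3 is also the lowest average listed for any gene. No listed gene could therefore lie beyond it, and being unlisted in adult cells reflects the same cut. At the embryonic limit, the lowest members stood at 1.00, 1.01 and 1.01 and the nearest genes outside at 0.976, 0.993 and 0.993. The fibroblast limit separated the genes more clearly. The nearest member inside had 4.63 in fibroblasts against 2.51 in embryonic cells, and the nearest gene outside 2.91 against 3.34. Every fibroblast replicate lay above every embryonic replicate in 124 of the 124 members. The rule asked for a fibroblast mean at or above the embryonic one, and no share over all genes was counted. Nothing is therefore read from this number.

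Within the red cell libraries the share of the members overlapped between embryo and adult. Their part of the reads on the 481 genes in both tables was 5.30%, 9.04% and 8.58% in embryonic replicates 1 to 3 and 12.6%, 9.75% and 6.05% in adult replicates 1 to 3. The means were 7.64% ± 2.04 and 9.48% ± 3.30 (SD, n = 3), and the groups overlapped. Member by member, the mean share of these reads was higher in adult cells for 82 genes and lower for 42. Replicates did not overlap in 29 of the higher and 24 of the lower genes, where 65.3% of the 481 genes were higher and 6.65% lower without overlap. The median ratio of adult to embryonic share was 1.29 over the members, 3.28 over the 92 genes that stayed at 1 or more, and 3.53 over the 481 genes. The members and the 92 genes were chosen by their levels in both kinds of red blood cells. Nothing is therefore read from the distance of these counts and ratios to the 481 genes. Shares within a library have a fixed total, so a change in its most abundant genes moves the shares of all others.

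**Figure D4:**
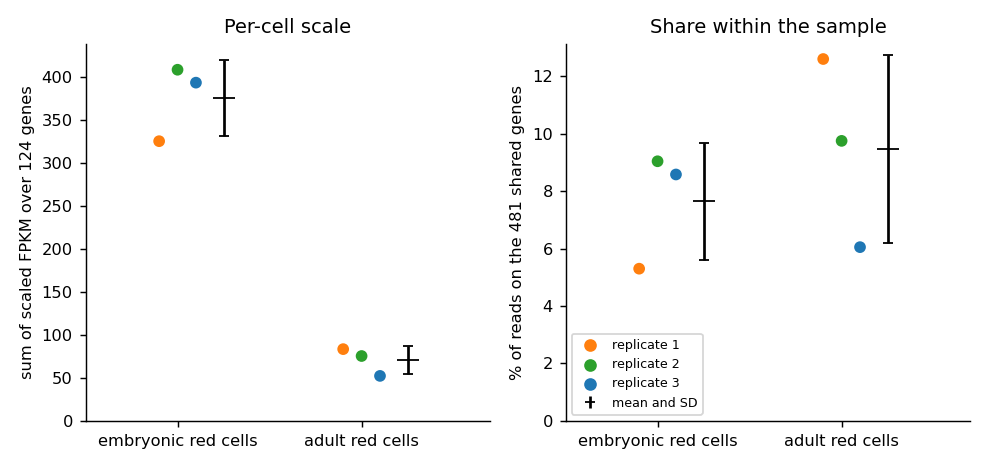
Sum of scaled FPKM over the 124 genes (left) and their percentage of the reads on the 481 genes listed in both red cell tables (right), by replicate, with the mean and SD of 3 replicates. The sums of 325 to 408 in embryonic and 52.3 to 83.4 in adult cells do not overlap, while the shares of 5.30% to 9.04% and 6.05% to 12.6% do.

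The adult replicates ordered the members differently. Spearman's rho over the 124 genes was 0.63 between adult replicates 1 and 2, 0.29 between 1 and 3, and 0.10 between 2 and 3. For 514 other genes in the same adult range of 0.3 to under 1, it was 0.66, -0.17 and -0.35. In both sets the pairs with replicate 3 had the lower values, which were below 0 in the other genes alone. In embryonic cells rho over the members was 0.80 to 0.95 and in fibroblasts 0.94 to 0.97. In erythroblasts rho was 1.00 between replicates 2 and 3, which were nearly alike, and 0.94 between each of them and replicate 1. These values describe libraries over genes that are not independent, and the embryonic and adult ranges were narrowed by the rule. Adult replicate 3 had the lowest value of the 3 in 91 members and the highest in 17. Its level was a median of 0.568 of the mean of replicates 1 and 2 over the members, against 0.827 over the 804 listed genes. Without adult replicate 3 the rule picks 117 genes, of which 110 are among the 124. Without embryonic replicate 1, which had the lowest value in 92 members, it picks 140 genes, of which 122 are among the 124.

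Gene length, recovered from the steps of the FPKM values and not used by the rule, set the members apart among themselves. The members had a median length of 1692 bp, with a range from 110 to 15343 bp, against 2189 bp over all 13889 genes. Under 1000 bp were 38 members, which is 30.6%, where the share was 17.1% over all genes, 54.3% over the 92 genes that stayed at 1 or more in adult cells and 23.4% over the 145 not listed there. The split at 1000 bp was chosen after seeing the data. The 38 shorter members had median levels of 568 scaled FPKM in fibroblasts, 180 in HD3 cells and 4.02 in the embryo. The 86 longer ones had 66.5, 16.8 and 1.62. In adult red blood cells the medians were 0.556 and 0.539, close together as the rule requires. Spearman's rho of length with level over the 124 members was -0.59 in fibroblasts and -0.55 in HD3 cells, then -0.41 in the embryo and -0.07 in the adult. FPKM divides by length, which these values share.

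The fibroblast levels of the members fell into a lower and a higher range. There were 62 members under 100 scaled FPKM, 12 between 100 and 300, and 50 at 300 or more. The limit of 300 was chosen after seeing the levels. The 50 high members had a median length of 942 bp and a median erythroblast level of 212, and the other 74 had 2602 bp and 12.7. By limma 50 of the 50 had more signal in HD3 cells than in the embryo, and 28 were lower in erythroblasts than in fibroblasts. Over all genes tested the shares were 93.4% and 78.5%, and the 50 were picked on the fibroblast level that the second count compares, so nothing is read from it. Of the 74, 64 of 73 tested were higher than in the embryo and 56 of 74 lower than in fibroblasts. The ratio of the adult to the embryonic level had a median of 0.157 in the 50 and 0.321 in the 74. With the adult level capped at 1, a higher embryonic level gives a lower ratio by construction. Fibroblast and erythroblast means had a Spearman's rho of 0.87 over the 124 members.

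The high and short members also mostly shifted the same way in fibroblast replicate 2 and in erythroblast replicate 1. Other genes of like level or length are not set beside them here, so this is not read as a trait of the members. In fibroblast replicate 2, 46 of the 50 high members lay above the mean of replicates 1 and 3, by a median ratio of 2.14. Over all listed genes the median ratio was 1.02, and 6854 of the 13248 with a ratio lay above. The 50 were picked on a fibroblast mean that includes replicate 2, so the choice itself favours genes high in that library. In erythroblast replicate 1, 43 of the 50 lay below the mean of replicates 2 and 3, by a median ratio of 0.513. Over all listed genes the ratio was 1.19, and 3879 of the 10265 with a ratio lay below. By length, the 38 members under 1000 bp had median ratios of 1.96 and 0.487 in these libraries, and the 86 longer ones 1.21 and 1.12. The 5 members under 200 bp had a median ratio of 0.516 in fibroblast replicate 2, unlike the other short ones. In erythroblast replicate 1 their median ratio was 0.241, but they were split, with 3 below and 2 above the mean of the other replicates. The part of these libraries in the comparison of erythroblasts with fibroblasts was measured by leaving each out. Among the 38 short members 25 were lower in erythroblasts with all samples, 18 without erythroblast replicate 1 and 19 without fibroblast replicate 2. Over all genes tested the shares lower were 78.5%, 77.8% and 76.8% in the same order. Among the 86 longer ones the numbers were 59, 59 and 55.

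**Figure D5:**
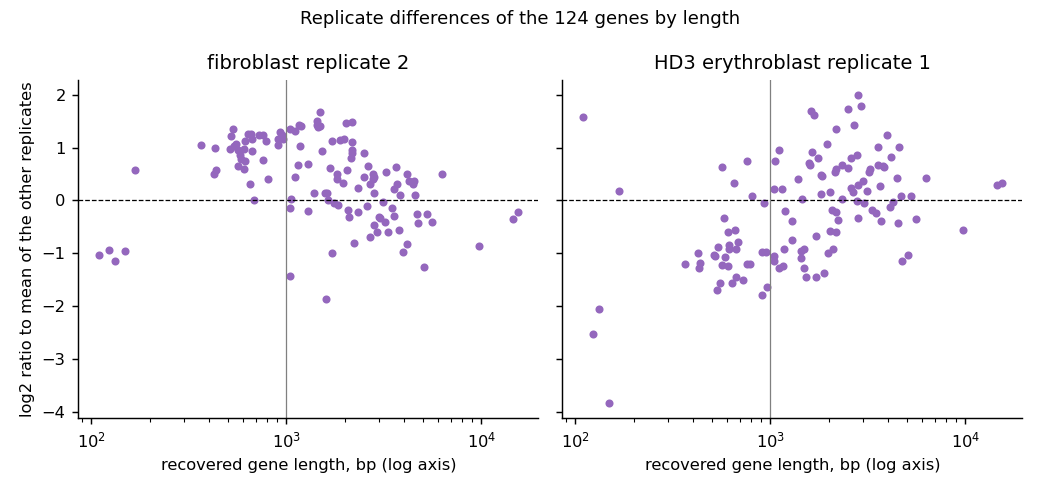
Log2 ratio of fibroblast replicate 2 (left) and HD3 erythroblast replicate 1 (right) to the mean of the other replicates of the cell type, for each of the 124 genes against its recovered length (log axis, line at 1000 bp). Members under 1000 bp lie mostly above 0 on the left and below 0 on the right, with medians of 0.97 and -1.04.

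Among the exceptions to the common order, the 3 members with an erythroblast mean above the fibroblast mean had ratios of fibroblast to erythroblast mean down to 0.764. By limma 0 of them passed the test, and in 1 the replicates did not overlap. In the others the erythroblast mean lay above only through replicate 1, at 10.9 and 10.4 scaled FPKM. Their erythroblast replicates 2 and 3, at 6.13 to 6.28, lay below every fibroblast replicate, at 6.73 to 7.89. The 5 members under 200 bp had fibroblast means from 46.4 to 136, erythroblast means from 8.34 to 39.1 and embryonic means from 1.01 to 5.18. Of these 5, 3 were lower in erythroblasts than in fibroblasts and 4 higher than in embryonic red blood cells by limma. Over all genes tested 78.5% were lower and 93.4% higher in these comparisons. Outside the members, the gene whose 4 means lay nearest to the median profile of the members, among 338 genes in all 4 tables, had 122, 35.8, 0.976 and 0.679 scaled FPKM in the 4 cell types, from fibroblasts to the adult. Its Euclidean distance over the 4 log2 means was 1.09, and it missed the embryonic limit of 1.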

How the data were processed

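The authors deposited 4 tables of FPKM values scaled to cell number, per the table names and file headers, with a column per replicate and their average. STAR 2.7.2b, featureCounts and GRCg6a are named in the submitters' processing notes. The annotation release and the cell-number factor are not given in the sources used here. Every listed gene had a deposited average of at least 0.3, and a gene not listed was treated as not measured. Columns were matched to samples by description, with 0 left out.

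Group means of the 3 replicates gave the members. The members, gene groups and tests were chosen with earlier results of these data known. For each pair with erythroblasts, limma 3.58.1 in R 4.3.3 was fitted, with a mean-variance trend, to log2(FPKM + 1) of the 6 samples, two-sided, over the genes of both tables whose mean over those samples reached 1. P-values were adjusted by Benjamini-Hochberg over all genes tested. Fold changes on this scale understate the change of low genes, while ratios are of untransformed means. At most 4 genes are named by ID: the 2 largest rises over embryonic cells and the 2 largest falls from fibroblasts, among members that passed without overlap of replicates.

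Whole reads and gene lengths were recovered from the FPKM steps, since each value is a whole read number over the gene's length, up to a factor fixed within a sample. Both came out for 100% of the listed genes. A length can come out too short where reads and length share a divisor. Listed genes held 8852972 to 23383938 reads in fibroblast and 9051846 to 19379169 in HD3 libraries. They held 6454390 to 17808106 reads in the embryo and 2916238 to 9541884 in the adult. Both steps were tested on simulated data. Alternatives were other pseudocounts, no filter, 2 other scalings, limma voom on recovered reads, the replicate number as a block, and leaving out each replicate.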

Additional observations from a re-analysis of the deposited data

How the results depend on the processing

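The number of members that passed in a comparison depended on how samples were scaled. Median centring gave 27 between erythroblasts and fibroblasts (15 higher and 12 lower in erythroblasts, where the main fit gave 0 and 84). It gave 68 against embryonic (51 and 17) and 76 against adult red blood cells (72 and 4). With equal sums there were 35 (24 and 11), 72 (67 and 5) and 57 (53 and 4). With limma voom on recovered reads there were 54 (48 and 6), 71 (38 and 33) and 87 (43 and 44). The shares over all genes stand with each comparison above. With equal sums over the genes in both red cell tables the median ratio of adult to embryonic level was 1.41 in place of 0.245, which turns its direction. Equal sums take out the difference in total signal by construction, and voom was scaled to reads over gene lists of unequal length. Leaving out single replicates gave 74 to 85, 110 to 115 and 121 to 122 members that passed in the same order of comparisons. With all samples there were 84, 114 and 122. Of all genes, 78.5% were then lower in erythroblasts than in fibroblasts, 93.4% higher than in embryonic and 87.7% higher than in adult cells. Shares over all genes are not given for each fit with a replicate left out, so nothing is read from these counts. Leaving out single replicates also gave 112 to 140 genes that meet the rule and median ratios from 0.222 to 0.268. Each of the 4 named genes kept direction and call under all 13 alternatives in the comparison it was named for. In their other comparison the direction turned under median centring, equal sums and voom for 3 of them. The log2 fold change against fibroblasts was then 0.99, 1.12 and 1.64 for ENSGALG00000012172 and 0.59, 0.72 and 1.21 for ENSGALG00000008806. Against embryonic cells it was -1.31, -0.31 and -1.91 for ENSGALG00000028627. The difference of ENSGALG00000008677 from embryonic cells did not pass with voom, and that of ENSGALG00000008806 from fibroblasts not without 1 of 4 single replicates. The cause was not tested.

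Same-numbered replicates did not deviate together, with correlations of -0.24 to 0.11 over the genes tested, so the number is not taken to pair samples. With the replicate block 87, 115 and 122 members passed. No share over all genes is given for that fit, so nothing is read from its counts. The cell-number factor is not stated in the sources used here.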
